A study of Mus musculus with 12 samples.

Results

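The genes described here encode the glutathione, thioredoxin and antioxidant enzymes of the mouse: the glutathione transferases, glutathione peroxidases, peroxiredoxins, thioredoxins with their reductases and related proteins, superoxide dismutases, metallothioneins, and 7 single genes (Hmox1, Nqo1, Gclc, Gclm, Gsr, Gss and Cat). They were chosen by symbol, with 1 probe set per symbol, the one with the highest mean over the 12 arrays. This gave 60 of the 12393 genes on the array. Expression was measured in striatum, the input nucleus of the basal ganglia, from 12 C57Bl/6 mice, 1 Affymetrix array per mouse. There were 4 groups of 3 mice: controls at 9 weeks, TIF-IA D1R-Cre mutants at 9 weeks, controls at 13 weeks and TIF-IA D1R-Cre mutants at 13 weeks. The labels give the controls no further genotype. TIF-IA, encoded by Rrn3, is an initiation factor of RNA polymerase I, the enzyme that makes ribosomal RNA, and D1R-Cre acts in a class of medium spiny neurons, which project out of the striatum. The comparisons ask which of these genes differ between mutants and controls at each age, and whether that difference changes with age.

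Glutathione is a tripeptide that carries a reactive thiol. Peroxidases use it to reduce hydrogen peroxide and lipid peroxides, transferases attach it to reactive compounds, and glutathione reductase restores it with NADPH. Thioredoxins and peroxiredoxins form a parallel thiol system, dismutases convert superoxide to hydrogen peroxide, and metallothioneins bind zinc and copper through their cysteines. In brain, much of the glutathione-making and metal-binding capacity is known to lie in astrocytes.

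Values are GCRMA signals on a log2 scale, and a difference is mutant minus control in those units, given ± its standard error from limma (3 mice per group). A gene was tested when, in at least 3 arrays, its signal exceeded the 40th percentile of that array (3.51 to 3.81). A gene passed at an adjusted p under 0.05, over all 8256 genes tested. Of the 60 members, 47 were tested. The 13 others were 8 transferases (Gsta2, Gsta3, Gstm2, Gstm3, Gstp3, Gstt2, Gstt3 and Mgst2), the peroxidases Gpx2 and Gpx5, Txndc8, Txnrd3 and Nqo1, with signals from 1.98 to 4.18. Gpx6 and Hmox1 were tested although they lay at the low end in some groups. Gpx6 was above the percentile in every control and in 0 mutants, and Hmox1 was above it only in the mutants at 13 weeks. Both therefore entered the test through the group in which they were high.

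The material was whole striatum, although the labels give medium spiny neurons as the cell type: the mean signal of 7 astrocyte markers lay between 9.40 and 9.59 in the 6 controls. In such bulk tissue, fewer cells of a type and less RNA per cell cannot be told apart. At 13 weeks the mean of 8 medium spiny neuron markers was 11.71 to 12.19 in controls and 9.70 to 10.36 in mutants, with 7 of the 8 lower. Of the 7 astrocyte markers, 6 were higher (9.52 to 9.59 in controls, 11.70 to 11.85 in mutants). All 6 reactive astrocyte markers were higher (3.89 to 4.10 against 9.92 to 10.70), and so were 6 of 8 microglial markers (7.97 to 8.33 against 10.10 to 10.43). At 9 weeks no marker of these 4 lists passed, although the means were not all level. The medium spiny neuron mean was then 11.88 to 11.93 in controls and 11.15 to 11.62 in mutants. The reactive astrocyte mean was 3.72 to 3.85 against 3.87 to 4.26. Those of astrocytes (9.40 to 9.57 against 9.55 to 9.99) and microglia (7.97 to 8.06 against 7.85 to 8.73) overlapped. No marker was listed at 0, since the lowest signal on any array was 1.09. The part of these shifts in the results below, at 9 or 13 weeks, was not tested. Rrn3 itself was lower in mutants at 9 weeks (-1.13, adjusted p = 0.00748) and did not pass at 13 weeks (-0.35, adjusted p = 0.128).

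Control mouse 3 at 13 weeks stood apart. Its mean correlation with its own group was 0.976, against 0.986 to 0.996 for the other 11 arrays. In that control, 16 of the 47 tested members (34.0%) lay more than 1 log2 unit from the mean of the other 2 controls, against 1702 of the 8256 genes (20.6%). Signals of Xist and Eif2s3y marked it as the only female among the controls at 13 weeks, while all 3 mutants of that age were female. Results that rest on this mouse are therefore given with and without it, and a fit with a term for sex is given beside the counts. Without this mouse, the comparison at 13 weeks set 2 male controls against 3 female mutants, so genotype and sex cannot be told apart there. The term for sex is itself estimated partly from this mouse. Slc17a6 and Calb2, genes of thalamus and pallidum, were raised in 3 other mice. They read 7.99 and 7.74 in mutant mouse 3 at 9 weeks, 7.08 and 8.0 in control mouse 1 at 13 weeks, and 4.44 and 5.01 in control mouse 2 at 13 weeks. In the mutants at 13 weeks they lay at or below 3.00 and 3.11. Thus 2 of the 3 controls at 13 weeks carried this signal and no mutant of that age did, and its part in the results was not tested.

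The 3 metallothionein genes lie side by side on chromosome 8. Their promoters are shown because all 3 genes rose together at 13 weeks and because metal response elements are known to drive Mt1 and Mt2. Any part of these elements in the rise was not tested. Each window runs from 250 bases before to 50 bases after the RefSeq start of transcription in build GRCm38.p6, 5′ to 3′ on the plus strand (Mt1 chr8:94178839-94179138, Mt2 chr8:94172368-94172667, Mt3 chr8:94152357-94152656). Capitals mark each match to the core of the metal response element, TGCACNC or TGCGCNC on either strand.
Mt1: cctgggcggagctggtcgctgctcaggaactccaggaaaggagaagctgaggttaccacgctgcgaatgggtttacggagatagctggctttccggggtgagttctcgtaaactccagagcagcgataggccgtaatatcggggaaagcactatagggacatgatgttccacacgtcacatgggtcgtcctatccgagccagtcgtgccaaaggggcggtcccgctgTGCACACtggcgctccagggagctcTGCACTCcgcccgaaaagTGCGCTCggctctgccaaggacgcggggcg
Mt2: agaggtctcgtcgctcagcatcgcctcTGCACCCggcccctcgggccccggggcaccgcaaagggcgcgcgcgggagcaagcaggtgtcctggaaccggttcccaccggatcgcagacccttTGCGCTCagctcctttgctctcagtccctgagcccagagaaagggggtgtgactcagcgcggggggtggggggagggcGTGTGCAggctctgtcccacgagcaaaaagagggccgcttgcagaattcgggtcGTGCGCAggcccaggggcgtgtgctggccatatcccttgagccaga
Mt3: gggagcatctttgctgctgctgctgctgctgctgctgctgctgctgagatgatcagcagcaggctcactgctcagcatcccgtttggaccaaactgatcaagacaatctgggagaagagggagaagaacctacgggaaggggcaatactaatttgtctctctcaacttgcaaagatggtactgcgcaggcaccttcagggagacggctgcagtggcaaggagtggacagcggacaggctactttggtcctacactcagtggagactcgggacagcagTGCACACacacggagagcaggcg
The Mt1 window held 3 matches, the Mt2 window 4 and the Mt3 window 1, with none overlapping. Of all 32851 promoters of this length, 25.7% held at least 1 match, 1.97% at least 3 and 0.517% at least 4. Over all the members with a promoter in the table (52 of 60, with 68 promoters), 26.5% of the promoters held a match, close to the share in all promoters. The core of the antioxidant response element, TGACNNNGC on either strand, was found in 14.7% of the members' promoters and in 12.4% of all promoters. These are matches of letters in a window, with no measure of binding.

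At 9 weeks, 2 of the 47 members passed the test. Gpx6, a glutathione peroxidase, was lower in the mutants, and Gsta4, the transferase known for its activity on the lipid peroxidation product 4-hydroxynonenal, was higher. The shares were 2.13% higher and 2.13% lower for the members, against 2.02% of all genes tested higher and 2.98% lower. The median difference was 0.07 for the members and -0.02 for all genes. Neither share stood far from its background.

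Gpx6 signals in controls at 9 weeks were 5.17, 5.66 and 6.14, and those in mutants were 2.09, 1.94 and 2.02. The groups did not overlap, and the mutant values lay near the low end of the scale. The difference was -3.64 ± 0.20 (adjusted p = 6.43e-06), a 12.5-fold lower signal. At 13 weeks the controls were at 6.28, 6.44 and 6.33 and the mutants at 1.92, 1.93 and 1.99. The difference there was -4.40 ± 0.20 (21.2-fold, adjusted p = 1.48e-08). Because every mutant signal lay below the 40th percentile, the size depends on how low values are treated. With values below each array's 40th percentile raised to it, the differences were -2.11 (4.32-fold, adjusted p = 0.000591) at 9 weeks and -2.58 (5.97-fold, adjusted p = 1.53e-06) at 13 weeks. The change of the difference between the ages was -0.76 (adjusted p = 0.0892) and did not pass. Mutant mouse 3 at 9 weeks and control mouse 3 at 13 weeks, which stood apart elsewhere, lay with their groups for this gene.

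Gpx6 was set beside its family as a description, with no test of the contrast, because it was singled out with its values known. Gpx1, the abundant cytosolic peroxidase, differed by 0.07 at 9 weeks and -0.08 at 13 weeks. Gpx4, which reduces lipid peroxides in membranes, differed by 0.15 and -0.06. Gpx3, the secreted form, differed by 0.91 and 0.30, and its difference at 9 weeks came largely from mutant mouse 3, at 5.88 where the other 2 mutants had 3.20 and 3.67. None of these 3 genes passed at either age. Gpx2 and Gpx5 were below the filter, with differences of -0.14 and 0.05 at 9 weeks and of -0.05 and -0.03 at 13 weeks. Gpx7 and Gpx8, both of the endoplasmic reticulum, were higher in the mutants at 13 weeks. Among the 6 peroxidase genes tested, Gpx6 had the only negative difference past the test, at both ages.

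**Figure D1:**
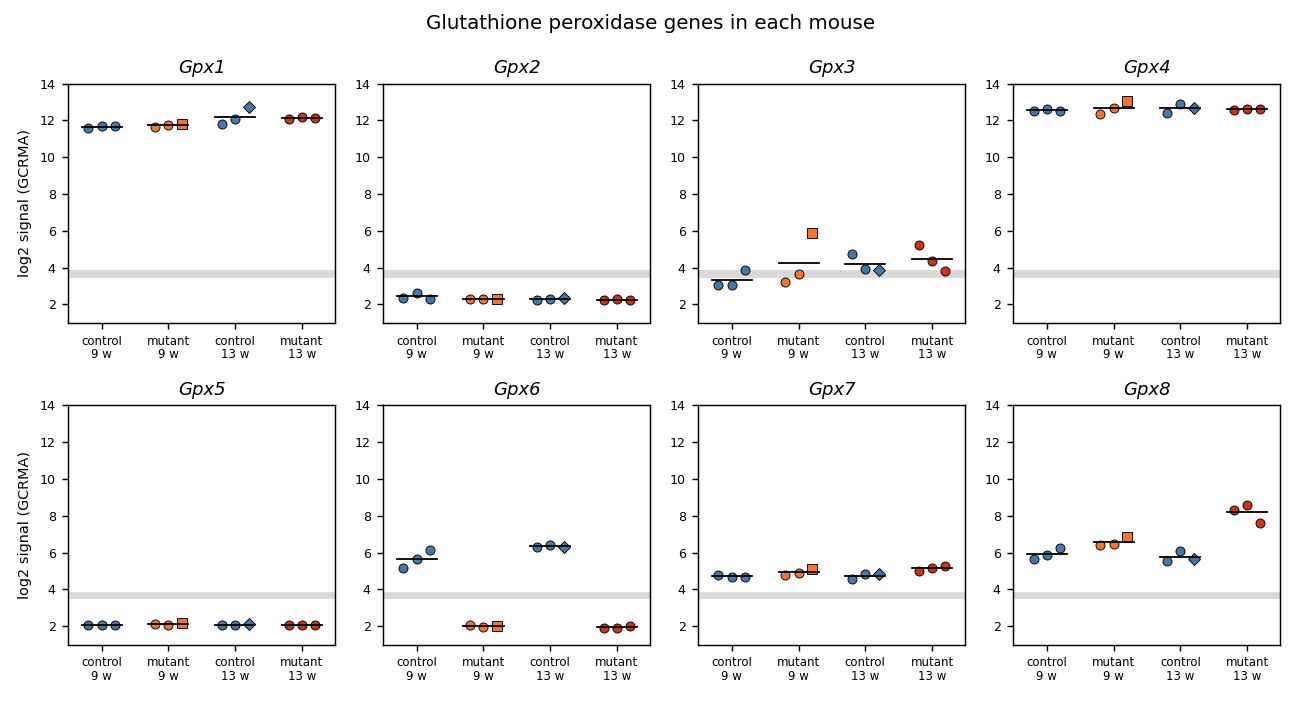
GCRMA log2 signal of the 8 glutathione peroxidase genes in each of the 12 mice, by genotype and age in weeks (w); bars are group means of 3 mice, the grey band is the range of the arrays' 40th percentiles, the diamond is control mouse 3 at 13 weeks and the square mutant mouse 3 at 9 weeks. Gpx6 lies below the band in all 6 mutants and above it in all 6 controls, and Gpx8 is highest in the 3 mutants at 13 weeks.

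Gpx8 signals were 5.55, 6.08 and 5.64 in controls, against 8.34, 8.57 and 7.63 in mutants at 13 weeks. Mutant mouse 3 was the lowest of the mutants and still above every control. The difference was 2.42 ± 0.26 (5.36-fold, adjusted p = 1.74e-05), against 0.66 at 9 weeks (adjusted p = 0.168), and it changed between the ages by 1.77 (adjusted p = 0.0059). Gpx7 signals were 4.59, 4.83 and 4.84 in controls, against 4.98, 5.18 and 5.26 in mutants. The groups were close but did not overlap, with a difference of 0.39 ± 0.15 (adjusted p = 0.0467). The Gpx7 call was lost in 5 of 11 alternative analyses and in 9 of the 12 fits that left out a mouse, with adjusted p up to 0.137.

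Gsta4 was the member with the clearest early rise. Its signals at 9 weeks were 8.41, 8.25 and 8.28 in controls, against 9.18, 9.05 and 9.92 in mutants. Each mutant lay above each control, with mutant mouse 3 the highest, and the difference was 1.07 ± 0.26 (2.10-fold, adjusted p = 0.0388). At 13 weeks the controls had 8.57, 8.91 and 9.54 and the mutants 8.79, 8.76 and 8.81. The groups overlapped there, and the difference was -0.22 ± 0.26 (adjusted p = 0.511), or 0.05 without control mouse 3. The genotype difference thus changed by -1.29 (adjusted p = 0.0289). The call at 9 weeks was lost in 9 of the 12 fits that left out a mouse, with adjusted p up to 0.125, and with no filter on low values.

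All groups share 1 estimate of the spread, so leaving out control mouse 3 at 13 weeks also changed the calls at 9 weeks. Without it, 4 members were higher (8.51%, against 6.43% of genes tested) and 2 lower (4.26%, against 10.2%). The 4 additional genes were Gclm (0.48, adjusted p = 0.0146), Gsto1 (0.62, adjusted p = 0.0256), Txndc17 (0.79, adjusted p = 0.00988) and, lower, Txnl4a (-0.42, adjusted p = 0.0399). Gclm encodes the modifier subunit of glutamate-cysteine ligase, the first enzyme of glutathione synthesis. Its signals at 9 weeks were 7.73, 7.80 and 7.91 in controls, against 8.22, 8.21 and 8.46 in mutants, and the groups did not overlap. With all 12 arrays its adjusted p was 0.0634. Txnl4a, named as thioredoxin-like but known as a splicing factor of the spliceosome, gave 0.40 in place of -0.42 with its second probe set, so its direction at 9 weeks depends on the probe set.

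At 13 weeks the antioxidant genes moved in both directions. Of the 47 members tested, 17 were higher in the mutants (36.2%, against 23.4% of all genes tested) and 8 lower (17.0%, against 21.9%). The median difference of the members was 0.30 and that of all genes 0.00. Hmox1, Mgst1, Gpx8, Sod3, Mt2 and Mt1 had the largest rises, and Gpx6 the largest fall. The 17 were Hmox1, Mgst1, Gpx8, Sod3, Mt2, Mt1, Txndc17, Gstm1, Cat, Prdx4, Txnip, Mt3, Gsto1, Txndc12, Txndc9, Gstk1 and Gpx7. The 8 were Gpx6, Gstm7, Mgst3, Sod1, Gsr, Gstm5, Txndc5 and Txnl4a. Without control mouse 3, 16 members were higher (34.0%, against 24.2%) and 6 lower (12.8%, against 23.8%). With a term for sex, 16 were higher and 9 lower. Centring the arrays on their medians moved the median of all genes to -0.16. It turned the members' split to 12 higher and 11 lower, and that over all genes from 1932 higher and 1812 lower to 1560 higher and 2386 lower. Each of the 25 kept the sign of its difference under that centring and under quantile normalization. In all, 12 of the 25 calls were lost in some alternative analysis or without some mouse: Cat, Gpx7, Gstk1, Gstm7, Gsto1, Mgst3, Sod1, Txndc17, Txndc5, Txndc9, Txnip and Txnl4a.

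**Figure D2:**
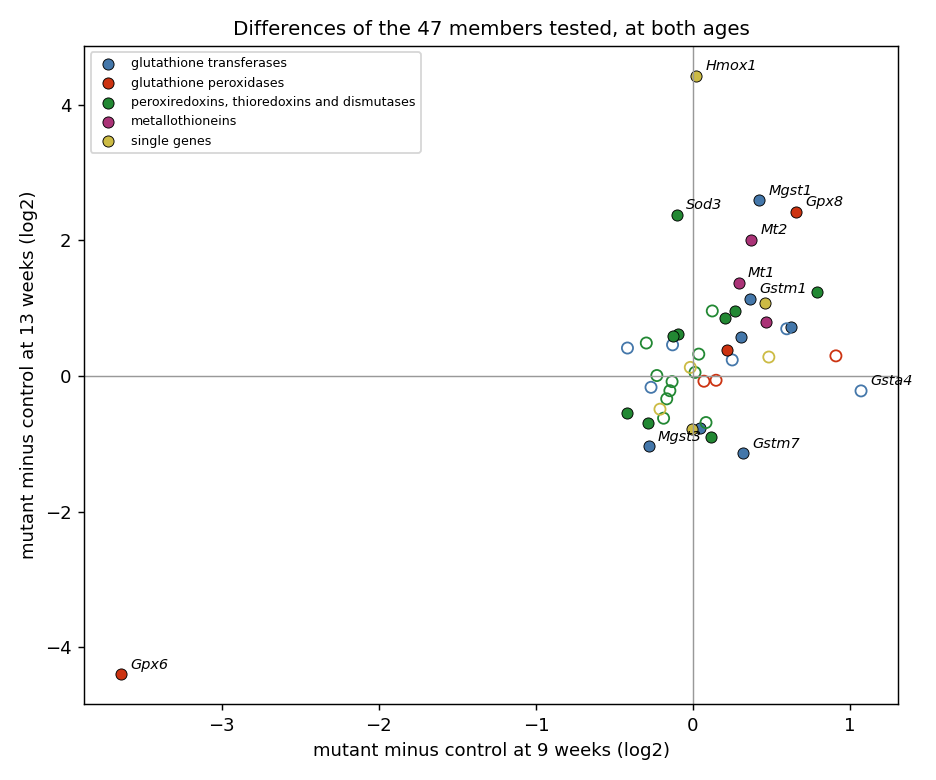
Mutant minus control difference (log2) of the 47 tested members at 9 weeks (horizontal) and 13 weeks (vertical), coloured by family; filled circles passed the test at 13 weeks and open circles did not. Gpx6 lies alone at lower left, Hmox1 lies near 0 at 9 weeks and highest at 13 weeks, and Gsta4 lies farthest to the right.

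Of the 3 metallothioneins, 3 were higher at 13 weeks (against 23.4% of all genes tested), with a median of 1.38. At 9 weeks 0 of 3 passed (against 2.02% of all genes higher), with a median of 0.37. Mt1 signals at 13 weeks were 12.78, 13.14 and 12.92 in controls, against 14.25, 14.37 and 14.35 in mutants, and the groups lay well apart. The difference was 1.38 ± 0.14 (2.60-fold, adjusted p = 9.49e-06), after 0.29 ± 0.14 at 9 weeks (adjusted p = 0.241). Mt2 signals were 11.60, 11.67 and 10.97 in controls, against 13.35, 13.44 and 13.49 in mutants. Control mouse 3 was the lowest, and the difference was 2.01 ± 0.19 (4.04-fold, adjusted p = 5.39e-06), or 1.79 without that mouse. Mt3, the form known as brain-enriched growth inhibitory factor, had signals of 11.91, 12.14 and 12.16 in controls and 12.86, 13.06 and 12.67 in mutants. Its difference was the smallest of the 3, at 0.79 ± 0.20 (1.73-fold, adjusted p = 0.00603). The genotype difference changed with age for Mt1 (1.08, adjusted p = 0.00233) and Mt2 (1.64, adjusted p = 0.00106). For Mt3 the change was 0.33 (adjusted p = 0.445). At 9 weeks all 3 mutants lay above all 3 controls for each metallothionein, although none passed. The same held for other members, such as Cat, Gclm and Mgst1, while for Txndc5, Txndc9 and Txnl4a the mutants lay below. The share of all genes separated in this way was not counted, so no early rise is read from it.

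**Figure D3:**
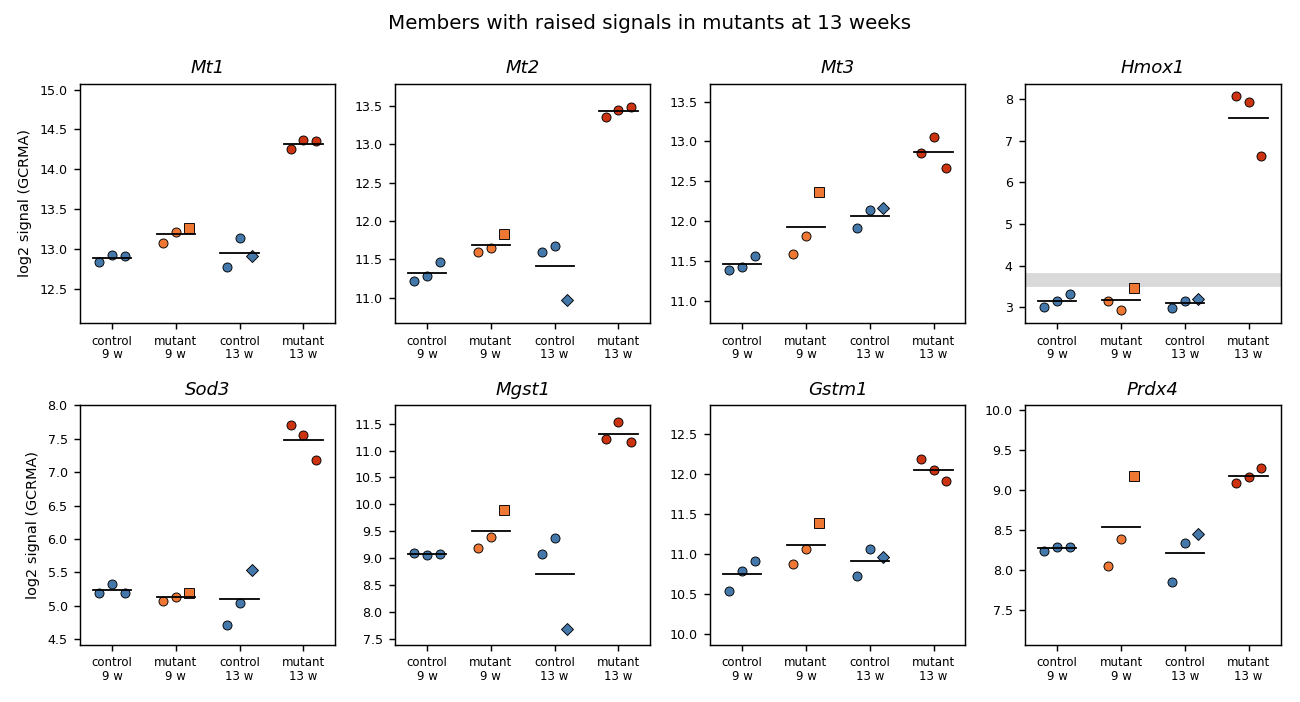
GCRMA log2 signal of 8 members in each of the 12 mice, by genotype and age in weeks (w), with group means of 3 mice as bars; vertical ranges differ between panels, the grey band is the range of the arrays' 40th percentiles, the diamond is control mouse 3 at 13 weeks and the square mutant mouse 3 at 9 weeks. The 3 mutants at 13 weeks lie above all controls of that age in every panel.

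Hmox1, the inducible haem oxygenase that releases iron, biliverdin and carbon monoxide from haem, had the largest rise. Its signals at 13 weeks were 2.99, 3.16 and 3.20 in controls, against 8.07, 7.94 and 6.63 in mutants. The controls lay below the percentile and all 3 mutants far above it, with mutant mouse 3 the lowest of them. The difference was 4.43 ± 0.31 (21.6-fold, adjusted p = 5.72e-07), or 4.0 (16-fold) with low values raised to the percentile. At 9 weeks it was 0.02 ± 0.31 (adjusted p = 0.986), and the change between the ages was 4.41 (adjusted p = 2.77e-05). Mutant mouse 3 at 13 weeks was also the lowest mutant for Gpx8, Sod3 and Cat. In contrast, Mt2, Prdx4, Gstk1, Gpx7 and Txndc9, which also rose, were highest in that mouse. The mean of the 8 medium spiny neuron markers was 10.36 in that mouse, against 9.70 and 9.85 in the other 2 mutants. Of these markers, Pdyn went the other way, at 6.65 against 7.13 and 7.33. Any link between these values was not tested.

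The genes of glutathione synthesis and reduction did not share that rise. Gsr, glutathione reductase, fell: signals at 13 weeks were 7.65, 7.43 and 8.29 in controls, against 7.03, 7.04 and 6.97 in mutants. The groups did not overlap, and the difference was -0.78 ± 0.20 (adjusted p = 0.00744), or -0.53 (adjusted p = 0.00672) without control mouse 3. Gclc, the catalytic subunit of glutamate-cysteine ligase, was at 9.47, 9.47 and 8.33 in controls and at 8.68, 8.48 and 8.64 in mutants. Control mouse 3 lay below the mutants and the other controls above them. The difference was -0.49 ± 0.26 (adjusted p = 0.15) with that mouse and -0.87 (adjusted p = 0.00048) without it. At 9 weeks the Gclc difference was -0.21 (adjusted p = 0.71). Its second probe set gave -0.56 there, with mutants at 8.90, 8.83 and 8.86 and controls at 9.55, 9.37 and 9.35. At 13 weeks that second probe set gave -0.59. Gclm differed by 0.28 (adjusted p = 0.113), or 0.36 (adjusted p = 0.0318) without the mouse. Gss, glutathione synthetase, differed by 0.13 (adjusted p = 0.61). Gclc, Gclm and Gss are described for their place in the pathway and after their values were seen. Cat, the catalase that breaks down hydrogen peroxide, rose: signals were 7.96, 7.69 and 6.60 in controls, against 8.66, 8.79 and 8.05 in mutants, with a difference of 1.08 ± 0.32 (2.12-fold, adjusted p = 0.0154), or 0.68 (adjusted p = 0.031) without control mouse 3.

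Among the glutathione transferases, 4 of 13 tested members rose at 13 weeks and 3 fell (30.8% and 23.1%, near the 23.4% and 21.9% of all genes), with a median of 0.41. Mgst1, the microsomal transferase of the endoplasmic reticulum and mitochondria, had signals of 9.07, 9.37 and 7.69 in controls and 11.22, 11.54 and 11.15 in mutants. Control mouse 3 was the lowest array, and the mutants lay above all controls. The difference was 2.59 ± 0.35 (6.03-fold, adjusted p = 0.000112), or 2.08 without that mouse, and it changed between the ages by 2.17 (adjusted p = 0.0107). Mgst3, another microsomal family member, moved the other way, by -1.04 ± 0.34 (adjusted p = 0.0245). However, mutant mouse 3 (8.30) lay above control mouse 3 (7.99). The Mgst3 difference was -1.44 (adjusted p = 0.00122) without control mouse 3, and -0.62 (adjusted p = 0.123) with the term for sex. The call was also lost with no filter, with the compared groups alone and without any of 4 single mice.

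The mu-class genes, which stand in a cluster of close relatives, were split. Gstm1 signals at 13 weeks were 10.72, 11.07 and 10.96 in controls, against 12.19, 12.06 and 11.92 in mutants, with no overlap. Gstm1 rose by 1.14 ± 0.18 (2.20-fold, adjusted p = 0.00026), after 0.36 at 9 weeks. Its other 2 probe sets over the filter gave 1.21 and 0.64. Gstm5, a brain-enriched form, fell by 0.76 on the log2 scale (± 0.18, adjusted p = 0.00412), from 12.19, 12.57 and 12.42 in controls to 11.50, 11.64 and 11.75 in mutants. At 9 weeks its difference was 0.04, and the change between the ages was -0.81 (adjusted p = 0.0427). Gstm7 signals were 7.43, 6.94 and 8.91 in controls, against 6.37, 6.68 and 6.81 in mutants. Its difference of -1.14 ± 0.43 (adjusted p = 0.0492) rested on control mouse 3 and was -0.57 (adjusted p = 0.154) without it. Gstm4 (0.46) and Gstm6 (0.41) did not pass. How far probes of these similar sequences also read each other's transcripts was not tested. Gsto1, an omega-class transferase, rose by 0.72 (adjusted p = 0.0259), but by 0.45 (adjusted p = 0.0625) without control mouse 3. Gstk1, the mitochondrial and peroxisomal kappa form, rose by 0.58 (adjusted p = 0.0241). The Gstk1 call was lost with the term for sex (0.57, adjusted p = 0.0544), with median centring, with the compared groups alone and without any of 4 single mice. Gstp1, the pi-class form, differed by -0.17 (adjusted p = 0.384). Gstt1, a theta-class form, stood at 6.25 to 6.51 in controls and 7.02 to 7.14 in mutants without overlap, yet its difference of 0.70 ± 0.30 did not pass (adjusted p = 0.0759). Gstz1, the zeta-class enzyme of tyrosine breakdown, differed by 0.24 (adjusted p = 0.596), and by 0.72 (adjusted p = 0.0134) without control mouse 3.

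**Figure D4:**
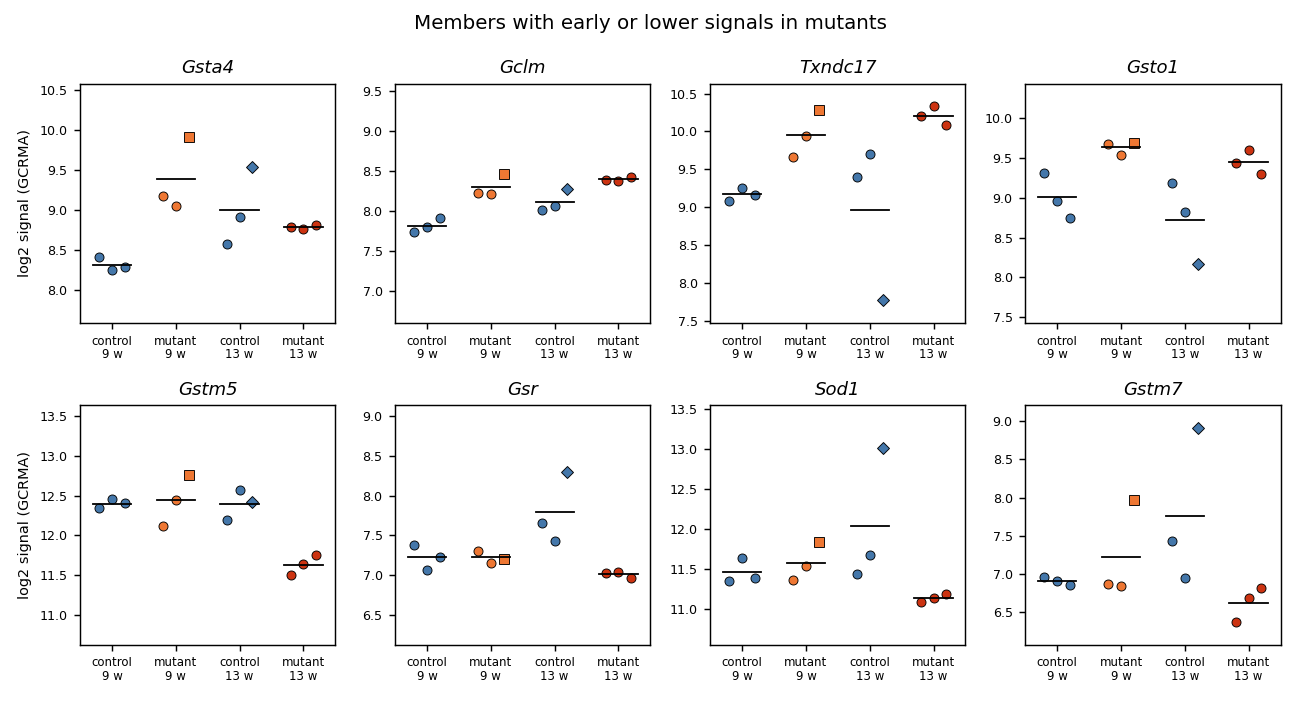
GCRMA log2 signal of 8 members in each of the 12 mice, by genotype and age in weeks (w), with group means of 3 mice as bars; vertical ranges differ between panels, the diamond is control mouse 3 at 13 weeks and the square mutant mouse 3 at 9 weeks. The upper row holds genes whose 3 mutants all lie above the controls at 9 weeks, the lower row genes with lower signals in mutants at 13 weeks, and control mouse 3 lies apart for Txndc17, Gsr, Sod1 and Gstm7.

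Of the 19 peroxiredoxins, thioredoxins and dismutases tested, 6 rose and 3 fell at 13 weeks (31.6% and 15.8%, against 23.4% and 21.9% of all genes), with a median of 0.05. Of the 3 dismutases, Sod3 rose and Sod1 fell. Sod3, the extracellular enzyme, had signals of 4.72, 5.05 and 5.53 in controls and 7.70, 7.56 and 7.19 in mutants. All mutants lay above all controls, and the difference was 2.38 ± 0.20 (5.22-fold, adjusted p = 2.72e-06), after -0.10 at 9 weeks. Its second probe set gave 2.35. Sod1, the cytosolic copper and zinc enzyme, was at 11.43, 11.67 and 13.02 in controls and at 11.08, 11.14 and 11.18 in mutants. The difference of -0.91 ± 0.33 (adjusted p = 0.0404) came down to -0.42 (adjusted p = 0.0536) without control mouse 3, and the second probe set gave -0.21. Sod2, the mitochondrial manganese enzyme, differed by 0.32 (adjusted p = 0.319), or by -0.05 without that mouse.

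Prdx4, the peroxiredoxin of the endoplasmic reticulum, had signals of 7.85, 8.34 and 8.45 in controls and 9.09, 9.16 and 9.27 in mutants at 13 weeks. The groups did not overlap, and the difference was 0.96 ± 0.25 (1.95-fold, adjusted p = 0.00867). Its other probe sets gave 1.69 and 0.21, the second of them at lower signal. Prdx2, a cytosolic form, differed by -0.22 (adjusted p = 0.333) and Prdx3, the mitochondrial form, by 0.01 (adjusted p = 0.975). A second Prdx2 probe set gave -0.70 at 13 weeks and -0.71 at 9 weeks, so the Prdx2 value depends on the probe set.

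Txndc17, a cytosolic thioredoxin-like reductase, had signals of 9.40, 9.70 and 7.78 in controls and 10.20, 10.33 and 10.09 in mutants at 13 weeks. Control mouse 3 lay far below the rest. The difference was 1.25 ± 0.39 (2.37-fold, adjusted p = 0.0202), and without that mouse 0.66 (adjusted p = 0.0113). For Txnl1, a cytosolic thioredoxin-like protein, the mean also turned on that mouse: its controls were at 10.59, 10.45 and 7.71, its mutants at 10.74, 10.75 and 10.14, and its difference fell from 0.96 (adjusted p = 0.194) to 0.02 without it. Txndc12, a thioredoxin-domain protein of the endoplasmic reticulum, rose by 0.63 (adjusted p = 0.00711). Txnip, which binds and inhibits thioredoxin, rose by 0.85 (adjusted p = 0.0372), or by 0.49 (adjusted p = 0.108) without control mouse 3. Txndc9 passed (0.59, adjusted p = 0.0471) but gave 0.28 without that mouse and 0.02 with its second probe set. Txndc5, a disulfide isomerase, fell by 0.69 (adjusted p = 0.0424), and its difference was -0.35 (adjusted p = 0.0918) without the mouse. Txnl4a fell by 0.55 (adjusted p = 0.00712), with -0.15 for its second probe set. The 2 thioredoxins themselves did not pass. Txn1, the cytosolic form, differed by 0.49 (adjusted p = 0.0502), or by 0.32 (adjusted p = 0.13) without control mouse 3. Txn2, the mitochondrial form, differed by -0.69 (adjusted p = 0.0539), or by -0.32 (adjusted p = 0.132) without it. Neither Txnrd1 (-0.08) nor Txnrd2 (0.05), the cytosolic and mitochondrial thioredoxin reductases, passed. Txndc11 (-0.62, adjusted p = 0.0824, or -0.22 without control mouse 3) and Txndc16 (-0.34, adjusted p = 0.137) did not pass, although their mutants lay below all controls.

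Of the 47 members, 10 had a genotype difference that changed between 9 and 13 weeks, by the test of the change itself. The difference became more positive for 8 (17.0%, against 12.1% of all genes): Hmox1, Sod3, Mgst1, Gpx8, Mt2, Mt1, Gstm1 and Txndc12. It became more negative for 2 (4.26%, against 6.38%): Gsta4 and Gstm5. Sod3 changed by 2.48 (adjusted p = 8.63e-05), Gstm1 by 0.78 (adjusted p = 0.0483) and Txndc12 by 0.72 (adjusted p = 0.0447). With the term for sex, the changes of Gstm1 (adjusted p = 0.0688) and Gstm5 (adjusted p = 0.0851) did not pass.

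The comparisons of age use the same arrays as those of genotype. By Xist and Eif2s3y, mutant mouse 1 at 9 weeks was female and mutant mice 2 and 3 of that age were male. All mutants at 13 weeks were female, so age and sex are partly mixed in the comparison of mutants. With a term for sex, 11 members passed in that comparison. In mutants, 8 members were higher at 13 than at 9 weeks (17.0%, against 16.1% of all genes tested) and 1 lower (2.13%, against 16.6%). The 8 were Hmox1 (4.37), Sod3 (2.35), Mgst1 (1.81), Mt2 (1.74), Gpx8 (1.60), Mt1 (1.14), Gstm1 (0.94) and Mt3 (0.94), and the gene that was lower was Gstm5 (-0.81). In controls, 0 members passed with limma, against 0.0848% of genes higher and 0.0606% lower, and 8 members had an unadjusted p under 0.05 (17.0%, against 17.3% of all genes). With array weights 3 passed, and without control mouse 3 again 0.

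Other genes that supply or regulate these enzymes were followed in a list of 66, of which 59 were tested. At 9 weeks, 2 were higher (3.39%, against 2.02% of all genes) and 1 lower (1.69%, against 2.98%). Lap3, an aminopeptidase that cleaves cysteinylglycine, rose by 0.71 (adjusted p = 0.038). Ggct, which releases oxoproline from gamma-glutamyl peptides, rose by 0.56 (adjusted p = 0.0411). Sesn1, a sestrin, fell by 0.80 (adjusted p = 0.0215). At 13 weeks 24 were higher (40.7%, against 23.4% of all genes) and 11 lower (18.6%, against 21.9%), with a median of 0.18.

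The counts at 13 weeks are given by role, with no test between roles. They stand beside 23.4% of all genes tested higher and 21.9% lower, and each role holds few genes. Of 6 tested genes of superoxide sources and copper handling, 4 rose and 0 fell: the NADPH oxidase subunits and activator Cyba (3.19 ± 0.30, adjusted p = 5.57e-06), Rac2 (2.92 ± 0.16, adjusted p = 4.99e-08), Ncf4 (2.33 ± 0.24, adjusted p = 1.15e-05) and Ncf1. Rac2 and Ncf4 lay above the 40th percentile only in the mutants at 13 weeks, and so entered the test through the group in which they were high. With low values raised to the percentile they differed by 1.62 and 0.95. These genes are known from phagocytes. At the same age 6 of 8 microglial markers were higher, while P2ry12 and Tmem119 did not pass. Of the 7 astrocyte markers, 6 were higher as well. Which cells carried the rises of these genes was not tested. Of 7 genes of NADPH supply, 5 rose and 0 fell. Of 9 regulators, 3 rose and 2 fell. Nfe2l2 (NRF2), the main activator of antioxidant genes, rose by 2.64 ± 0.32 (6.23-fold, adjusted p = 5.02e-05). Without control mouse 3, its lowest control, the Nfe2l2 difference was 2.21 (4.64-fold, adjusted p = 1.86e-05). Maff, a small partner protein of NRF2, rose by 2.58 ± 0.19 (adjusted p = 9.31e-07). Maff too was above the percentile only in the mutants at 13 weeks, and it differed by 1.56 with low values raised to it. Bach1 was the other regulator that rose, by 1.73 ± 0.34 (adjusted p = 0.00147), or by 1.26 (adjusted p = 0.000636) without control mouse 3. Keap1, which marks NRF2 for degradation, and Mtf1, the factor that binds metal response elements, were the 2 that fell. Of 11 genes of cystine and glutathione supply and use, 3 rose and 3 fell (27.3% each, near the shares of all genes). Slc1a1, the neuronal glutamate and cysteine transporter, fell by 1.98 on the log2 scale (± 0.25, adjusted p = 5.48e-05), with a difference of -1.70 without control mouse 3. Of 9 glutaredoxin and repair genes, 3 rose and 1 fell. Of 7 genes of iron, haem and quinone handling, 2 rose and 1 fell. Of 6 genes of selenoprotein supply, 2 rose and 3 fell, and of 4 zinc transporters, 2 rose and 1 fell. Without control mouse 3, Tkt of NADPH supply (adjusted p = 0.0713) and Selenow of selenoprotein supply (adjusted p = 0.0617) did not pass. Sesn1 (-0.48, adjusted p = 0.0296) and Sesn3 (-1.05, adjusted p = 0.00025), of glutaredoxins and repair, then passed as lower.

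**Figure D5:**
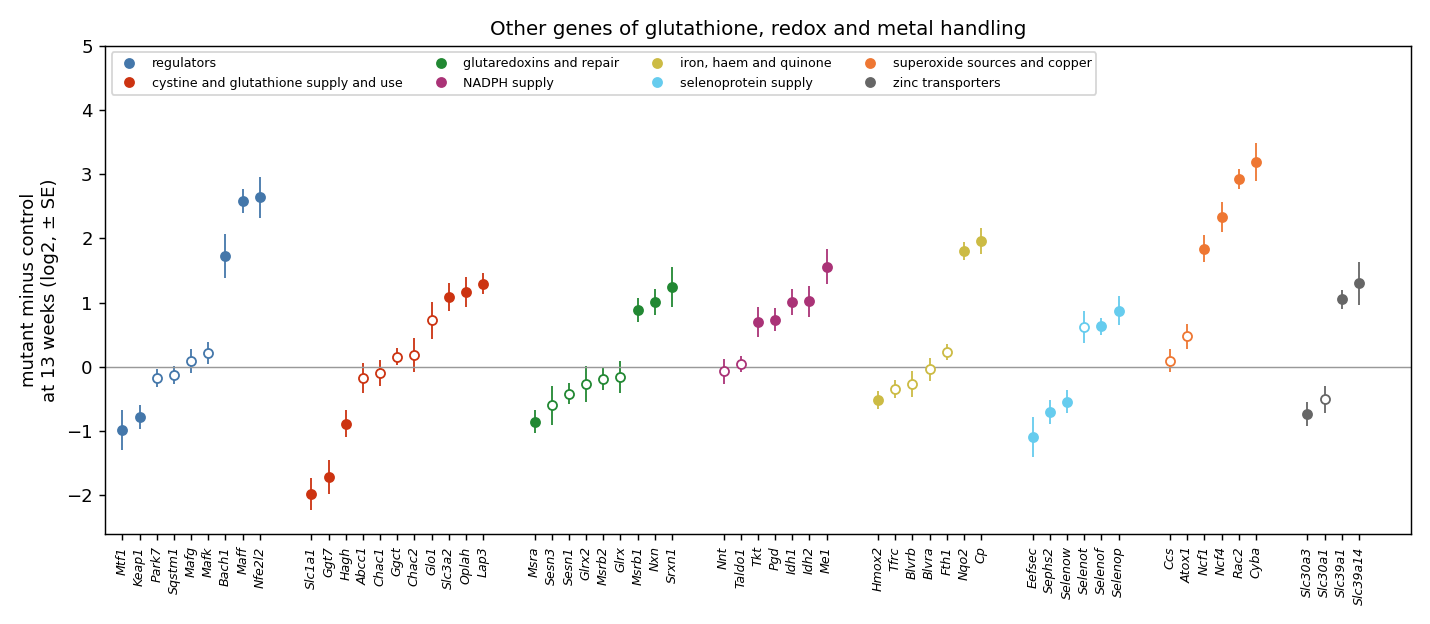
Mutant minus control difference at 13 weeks (log2) with its standard error for the 59 tested genes of the pathway list, grouped by role and ordered by value within a role; filled points passed the test and open points did not. The genes of superoxide sources and copper handling reach the highest values, with Cyba at 3.19, and the cystine and glutathione genes span -1.98 (Slc1a1) to 1.30 (Lap3).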

How the data were processed

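Striatal RNA of 12 mice was hybridised to Affymetrix arrays, 1 per mouse. The authors deposited GCRMA values on a log2 scale, per the submitters' processing notes and the values themselves; the GCRMA version is not given in the sources used here, and its correction for background can affect low signals most. The values were used as deposited. Of 22690 probe sets, 64 array controls were left out, and GEO's platform annotation gave 1 symbol for 20380, several for 691 and none for 1555; only the first were used. All 60 members matched RefSeq by gene ID.

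Genes above the array's 40th percentile in at least 3 arrays (8256 of 12393) were fitted with limma 3.58.1 in R 4.3.3, with 4 group means, 8 residual degrees of freedom and Benjamini-Hochberg adjustment over all genes tested; every adjusted p is from limma, two-sided. The code was tested on simulated data. Members and lists were chosen with earlier results of these data known. Every member that passed a genotype test is named, with values per mouse for the 3 largest differences of each family at 13 weeks. From the pathway list, up to 6 genes that passed, with the largest differences at each age, are named. Ncf1, Bach1, Keap1 and Mtf1 were added after their values were seen, to name the members of small counts. Tkt, Selenow and Sesn3 were added in the same way, as calls that changed without control mouse 3. The labels call the replicates biological; the number of arrays, 3 per group, limits the precision. Promoters are from RefSeq (GRCm38.p6). Array medians ran from 5.29 to 5.52.

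Alternatives covered normalization, the filter, low values, probe set choice, array weights, the prior, the groups fitted, a replicate block, a term for sex, the threshold and each array left out.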

Additional observations from a re-analysis of the deposited data

Results flagged for a closer look

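For 10 members the mutant minus control difference itself changed between 9 and 13 weeks, by the interaction test in limma over all genes. Values are the change in log2 units with its standard error. The largest were Hmox1 at 4.41 ± 0.44 (adjusted p = 2.77e-05), Sod3 at 2.48 ± 0.29 (adjusted p = 8.63e-05), Mgst1 at 2.17 ± 0.50 (adjusted p = 0.0107), Gpx8 at 1.77 ± 0.37 (adjusted p = 0.0059) and Mt2 at 1.64 ± 0.26 (adjusted p = 0.00106). Smaller rises were those of Mt1 at 1.08 (adjusted p = 0.00233), Gstm1 at 0.78 (adjusted p = 0.0483) and Txndc12 at 0.72 (adjusted p = 0.0447). Gsta4, at -1.29 (adjusted p = 0.0289), and Gstm5, at -0.81 (adjusted p = 0.0427), moved down.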

How the results depend on the processing

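Over single genes, 715 of 867 alternative values kept their side of the threshold, 152 lost it and 0 changed direction. Gpx6 at 9 weeks passed in each of the 11 alternatives in which it was tested (the filter at the 60th percentile removed it) and without each array. Of the 25 calls at 13 weeks, 13 held in every fit that tested them; of the 10 changes between ages, 5 did. These counts include Gpx6, at 13 weeks, and Hmox1, which the filter at the 60th percentile removed; Hmox1 also fell below the filter without any 1 mutant of 13 weeks. The count of 2 members at 9 weeks became 14 with array weights, 4 with the compared groups alone and 1 at an adjusted p of 0.01. It became 8 without both arrays that stand apart, which were chosen after seeing the data. These were control mouse 3 at 13 weeks and mutant mouse 3 at 9 weeks. The latter had a correlation of 0.991 with its group, inside the range of the other arrays, and high Slc17a6 and Calb2. Control mouse 1 at 13 weeks, also high for these 2 genes, was kept. Leaving out 1 array gave 1 to 6 members, the highest without control mouse 3 at 13 weeks. The 17 higher at 13 weeks became 11 with the compared groups alone and 10 at 0.01, and 9 to 18 without 1 array, the lowest without mutant mouse 2 of 13 weeks. The 8 lower became 4 with no filter, 4 with the compared groups alone and 4 at 0.01, and 4 to 9 without 1 array, the lowest without mutant mouse 1 or 2 of 13 weeks. The 10 changes between ages became 21 with array weights and 5 at 0.01, and 5 to 12 without 1 array, the lowest again without mutant mouse 1 or 2 of 13 weeks. From 9 to 13 weeks, the 0 members in controls became 3 with array weights; the 9 in mutants became 29 with array weights, 21 without both arrays and 18 at 0.1, and 8 to 20 without 1 array, the highest without control mouse 3. The cause was not tested.

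The replicate numbers gave no clear pairing of the mice. Of 18 same-number pairs, 3 correlated above 0.1 (-0.12 to 0.32, median 0.08), and several others lay just under that value. For 1 of 12 arrays its own number correlated best throughout. These values cannot settle whether mice of the same number were paired. With a replicate block, 2 members passed at 9 weeks, 17 were higher and 9 lower at 13 weeks, 9 changed between ages, and 0 in controls and 12 in mutants passed between ages. Signals near the floor of the arrays, as for Gpx6 in mutants and Hmox1 in controls, limit the folds.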

Other observations

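Prdx1, a cytosolic peroxiredoxin, had no probe set with a single symbol and so is no member: its 5 probe sets also name Gm21399. They gave differences of 0.03 to 0.46 at 9 weeks and of 0.44 to 1.00 at 13 weeks, higher in mutants in each. Txnrd3, a thioredoxin reductase known mainly from testis, was below the filter. Its signals at 13 weeks were 2.89, 2.43 and 2.46 in controls, against 3.58, 4.10 and 4.18 in mutants, without overlap. With no filter on low values its difference was 1.36 ± 0.22 (adjusted p = 0.00127, limma). Its other 2 probe sets, also below the filter, gave 0.25 and -0.03. Txnrd3 was chosen here after its values were seen.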
